A study of Oryza sativa with 18 samples.

Results

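The rice genes of meiosis described here are PAIR1, SPO11-4, PAIR2, PAIR3, REC8, ZEP1, DMC1A, DMC1B, MER3 and MEL1. They make up 10 of the 38663 genes in the deposited expression table, and they were taken by locus identifier from a fixed list of meiosis genes. Measured values were not part of that rule, but the genes were chosen with earlier results of these data known. The study measured N6-methyladenosine (m6A), a methyl mark on mRNA, by sequencing RNA fragments of about 100 nucleotides pulled down with an m6A antibody, beside input RNA kept before the pull-down. The 18 libraries were 9 pull-down and 9 input libraries, 3 of each from every group. All plants were the japonica cultivar Nipponbare, sown in the field on May 2, with no mutant or treated group. Booting panicles, still inside the leaf sheath, were cut on August 3 and flowering panicles on August 14, both at about 3 PM. Flag leaves, the last leaves below the panicle, came from the flowering stage, and their day of collection is not labelled. Panicle stage and collection day cannot be told apart, and whole organs were sampled, so no group holds meiocytes alone. Input levels are FPKM, fragments normalized for transcript length and library size, so levels of different genes can be set side by side.

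Meiosis reduces the chromosome set before pollen and egg cells form. Chromosomes are broken by a topoisomerase-like enzyme, held by a protein axis and cohesin, joined to their partner by the synaptonemal complex, and repaired by recombinases and helicases into crossovers. In rice anthers this happens in pollen mother cells, surrounded by the tapetum, a nursing cell layer, while panicles are at the booting stage; in open flowers the male cells have become pollen.

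For 9 of the 10 genes, booting panicles had the highest mean level, flowering panicles the next and flag leaves the lowest, an order that 41% of the 23355 genes tested showed. DMC1B was the exception, with a level in leaves between those of booting and flowering panicles. Of the 10 genes, 7 fell from booting to flowering panicles, as 15.3% of tested genes did. For PAIR1 and DMC1A, among the 7, the filter of the test favoured a fall. SPO11-4, MEL1 and PAIR2 were the most abundant members in booting panicles. All 10 carried a listed m6A peak in booting panicles, where 63.1% of tested genes had one, and in leaves, where 64.8% had one. In flowering panicles 9 carried a peak, beside 63.5%.

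Marker genes followed the labelled organs. Summed over the list of 3 floral organ genes (MADS1, MADS6 and MADS8), booting libraries held 606.7 to 617.7 FPKM, flowering libraries 1002 to 1078 FPKM and leaf libraries 4.91 to 7.31 FPKM. The 2 leaf genes, a RuBisCO small subunit and RuBisCO activase, summed to less in panicles than in leaves: 74.6 to 109.3 FPKM in booting libraries, 1993 to 2261 FPKM in flowering libraries and 18244 to 18675 FPKM in leaf libraries. The 6 genes of the anther wall and tapetum (MSP1, UDT1, TDR, EAT1, CYP704B2 and PKS1) summed to 438.7 to 990.7 FPKM at booting, 14.2 to 20.1 FPKM at flowering and 2.74 to 4.13 FPKM in leaves, and EAT1 was listed at 0 in 1 leaf library. PKS1 and CYP704B2 had the largest booting means of these, 448.1 and 172.0 FPKM, and MSP1 and UDT1 the smallest, 20.8 and 6.24 FPKM. The 3 genes of mature pollen (expansin-B9, C13 and pollen receptor-like kinase 3) summed to 11.2 to 15.8 FPKM at booting, 4857 to 5612 FPKM at flowering and 8.28 to 18.5 FPKM in leaves. Input libraries of a group correlated with each other at Pearson's r from 0.9875, across genes. These are bulk samples, so fewer cells of a type and less RNA per cell cannot be told apart. The samples are labelled as replicates without saying whether they came from separate plants, and p-values measure only the spread between them.

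**Figure D1:**
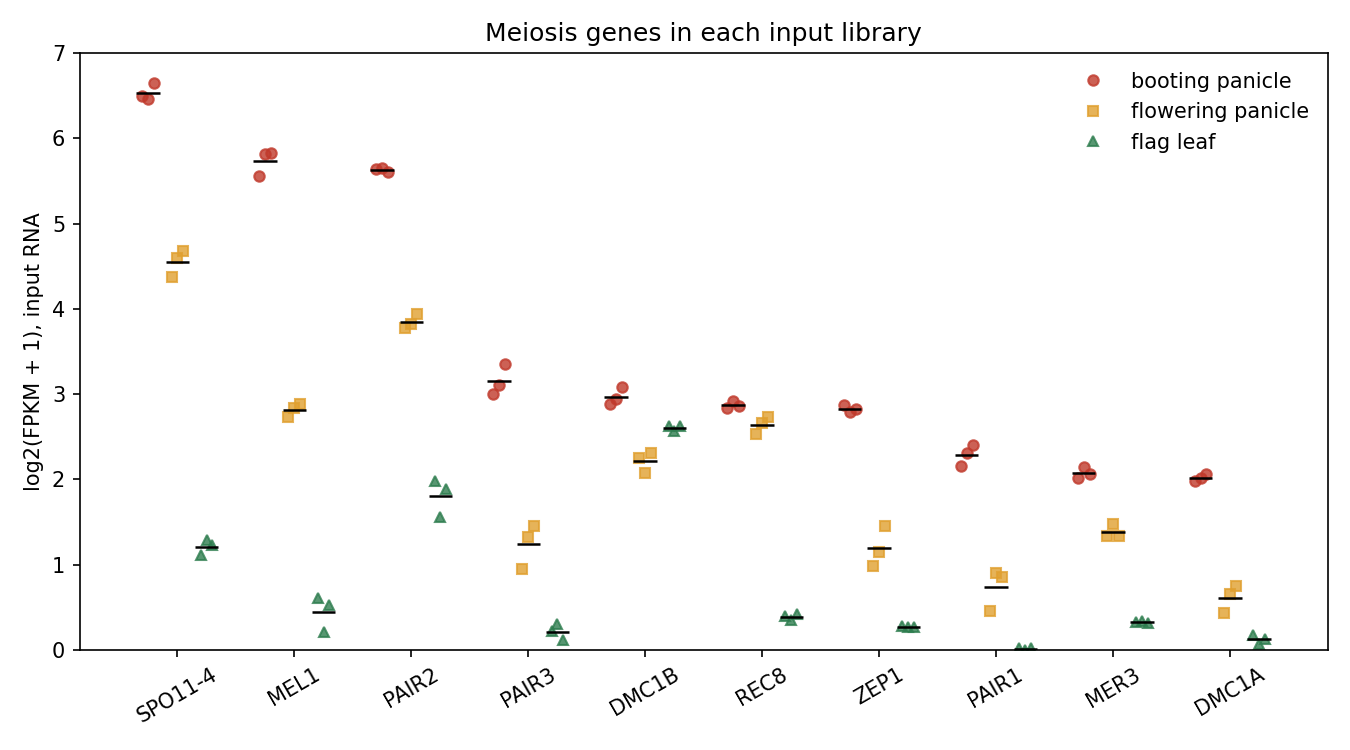
Level of each meiosis gene in the 9 input libraries, as log2(FPKM + 1); points are single libraries, black lines are group means of the 3 libraries, and genes are ordered by their booting panicle level. Booting libraries lie highest for all 10 genes, and DMC1B is the gene whose leaf libraries lie above its flowering libraries.

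Levels were tested with limma on log2(FPKM + 1) across all 23355 genes that reached 1 FPKM in at least 3 of the 9 input libraries. Calls needed an adjusted p (Benjamini-Hochberg over these genes) under 0.05 together with a log2 change of at least 1 in size, and they are given as higher or lower. The added 1 shrinks the change of genes at low FPKM, so levels stand beside each change. All 10 members entered the test, but PAIR1 and DMC1A reached 1 FPKM only in the 3 booting libraries, so the filter itself favoured a difference for them.

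PAIR1 acts at the start of recombination, and SPO11-4 belongs to a protein family with members that do. PAIR1, a coiled-coil protein needed in rice for homologous chromosomes to pair and for the breaks that start recombination, lies at chromosome 3, 370151 to 374690, minus strand, as LOC_Os03g01590. Its input level was 3.46, 3.95 and 4.29 FPKM in booting replicates 1, 2 and 3, 0.375, 0.872 and 0.815 FPKM in flowering replicates, and 0.017, 0 and 0.017 FPKM in leaves. Every booting library lay above every flowering library, and 1 leaf library was listed at 0. PAIR1 fell from booting to flowering panicles by 1.55 on the log2 scale (SE 0.12; limma adjusted p = 1.1e-06).

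SPO11-4 is a member of the SPO11 family, which includes proteins that cut DNA to start meiotic recombination. The part of SPO11-4 itself in rice meiosis was not tested. SPO11-4 lies at chromosome 12, 26577956 to 26581040, plus strand, as LOC_Os12g42760. It was the most abundant member, at 89.1, 86.7 and 99.3 FPKM in booting replicates. Flowering replicates held 19.7, 23.2 and 24.6 FPKM, and leaves 1.16, 1.44 and 1.35 FPKM. The groups did not overlap, and the mean in flowering panicles was 24.6% of that in booting panicles. SPO11-4 fell between the stages by 1.98 on the log2 scale (SE 0.09; limma adjusted p = 2.52e-08).

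PAIR2, PAIR3 and REC8 build or hold the chromosome axis. PAIR2, a HORMA domain protein of the unsynapsed axis, lies at chromosome 9, 19620623 to 19628697, plus strand, as LOC_Os09g32930. It stood at 48.9, 49.3 and 47.5 FPKM in booting replicates, 12.7, 13.2 and 14.4 FPKM in flowering replicates, and 2.95, 1.94 and 2.69 FPKM in leaves. Its replicates were tight within each panicle stage, and it fell by 1.78 on the log2 scale (SE 0.11; limma adjusted p = 1.33e-07). PAIR3, an axis protein needed for pairing and synapsis in rice, lies at chromosome 10, 13843156 to 13848669, plus strand, as LOC_Os10g26560. The table describes that locus only as a hypothetical protein with the process term meiotic nuclear division.

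PAIR3 was measured at 7.02, 7.60 and 9.26 FPKM in booting replicates, 0.93, 1.504 and 1.74 FPKM in flowering replicates and 0.165, 0.240 and 0.081 FPKM in leaves. Booting replicate 3 and flowering replicate 1 were the extremes of their groups, which stayed well apart. PAIR3 fell between the stages by 1.91 on the log2 scale (SE 0.14; limma adjusted p = 7.69e-07). REC8, the meiotic subunit of cohesin that holds sister chromatids together, behaved otherwise. It lies at chromosome 5, 28889622 to 28896998, plus strand, as LOC_Os05g50410.

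REC8 stood at 6.12, 6.55 and 6.29 FPKM in booting replicates, 4.78, 5.33 and 5.67 FPKM in flowering replicates and 0.315, 0.281 and 0.338 FPKM in leaves. Each flowering library lay below each booting library, but the flowering mean was still 83.2% of the booting mean. The log2 change was -0.23 (SE 0.08; limma adjusted p = 0.0296), under the size needed for a call.

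ZEP1, the transverse filament protein that forms the centre of the synaptonemal complex, lies at chromosome 4, 22583456 to 22592933, plus strand, as LOC_Os04g37960. The table gives it no name but the component term synaptonemal complex. Its level was 6.30, 5.94 and 6.11 FPKM in booting replicates, 0.977, 1.21 and 1.75 FPKM in flowering replicates and 0.220, 0.201 and 0.202 FPKM in leaves. The booting libraries were close to each other and the flowering libraries spread more widely, without overlap. ZEP1 fell by 1.63 on the log2 scale (SE 0.11; limma adjusted p = 4.65e-07).

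MER3, a DNA helicase that carries recombination intermediates towards crossovers, lies at chromosome 2, 24518227 to 24527233, plus strand, as LOC_Os02g40450. It was at 3.04, 3.42 and 3.18 FPKM in booting replicates, 1.53, 1.78 and 1.54 FPKM in flowering replicates and 0.259, 0.261 and 0.241 FPKM in leaves. The flowering mean was 50.3% of the booting mean, with no overlap. The log2 change was -0.69 (SE 0.08; limma adjusted p = 1.7e-05), which was not called. Its last 327 bases overlap LOC_Os02g40454, a gene on the opposite strand described as a phosphatase regulatory subunit. That neighbour was at 2.65 ± 0.212 FPKM at booting, 3.67 ± 0.512 FPKM at flowering and 14.3 ± 1.19 FPKM in leaves (SD, n = 3). The libraries kept strand, but whether counting used it is not stated, and the neighbour ran in the opposite order to MER3.

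MEL1, a germ-cell Argonaute of rice that binds phased small RNAs and is needed for meiosis to proceed, lies at chromosome 3, 33371341 to 33380303, minus strand, as LOC_Os03g58600. Its level was 46.0, 55.5 and 55.8 FPKM in booting replicates, 5.66, 6.14 and 6.40 FPKM in flowering replicates and 0.520, 0.158 and 0.443 FPKM in leaves. The flowering mean was 11.6% of the booting mean, the lowest share of any member. MEL1 fell by 2.91 on the log2 scale (SE 0.12; limma adjusted p = 9.77e-09).

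DMC1A and DMC1B are near-identical copies of the meiosis-specific recombinase that pairs a broken DNA end with the homologous chromosome. DMC1A lies at chromosome 12, 2154058 to 2158284, minus strand, as LOC_Os12g04980, and DMC1B at chromosome 11, 2120107 to 2124411, minus strand, as LOC_Os11g04954. The table names the former a DMC1 homolog and gives the latter only the process term reciprocal meiotic recombination. Reads that match both copies could have been split between them in the deposited values, so their separate levels are uncertain.

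DMC1A was at 2.95, 3.04 and 3.17 FPKM in booting replicates, 0.347, 0.570 and 0.689 FPKM in flowering replicates and 0.133, 0.0479 and 0.0917 FPKM in leaves. It followed the order of most members and fell between the stages by 1.41 on the log2 scale (SE 0.09; limma adjusted p = 2.86e-07). DMC1B was at 6.40, 6.68 and 7.46 FPKM in booting replicates, 3.78, 3.22 and 3.97 FPKM in flowering replicates and 5.18, 4.93 and 5.17 FPKM in leaves. Its leaf libraries all lay above its flowering libraries and below its booting libraries, so the label of a panicle gene was not met by this copy.

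No DMC1B change reached the size for a call. From booting to flowering panicles its log2 change was -0.75 (SE 0.09; limma adjusted p = 2.89e-05). For flowering panicles against leaves the log2 change was -0.39 (SE 0.09; limma adjusted p = 0.00245), and under quantile normalization it was called lower at -1.07. For booting panicles against leaves it was 0.36 (SE 0.09; limma adjusted p = 0.00357), and quantile normalization turned the direction, to -0.17 (limma adjusted p = 0.106).

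In the deposited values, the balance of the DMC1 copies differed between the groups. DMC1A made up 29.8 to 31.6% of their summed FPKM in booting libraries, 8.41 to 15.0% in flowering libraries and 0.961 to 2.51% in leaf libraries. The log2 ratio of DMC1B to DMC1A, each with 1 FPKM added, was 0.95 ± 0.06 at booting, 1.60 ± 0.20 at flowering and 2.48 ± 0.03 in leaves (SD, n = 3). None of the groups overlapped in this ratio. An exact two-sided permutation test gave p = 0.1 for each of the 3 pairs of groups, which is the smallest p that 3 against 3 libraries allow. DMC1A was at 0.0479 to 0.133 FPKM in leaves, so the added 1 shrinks the leaf ratio and its spread. Without it, DMC1B was 38.9, 103.0 and 56.4 times DMC1A in leaf replicates 1, 2 and 3. That fold was 2.17 to 2.35 in booting libraries and 5.65 to 10.9 in flowering libraries. Summed as 1 gene, the copies stood at 9.90 ± 0.660 FPKM in booting panicles, 4.19 ± 0.436 FPKM in flowering panicles and 5.18 ± 0.177 FPKM in leaves (SD, n = 3). The sum fell from booting to flowering panicles by 1.07 on the log2 scale (SE 0.09; limma adjusted p = 1.44e-06). Against leaves, the sum was not called in either stage, at 0.82 for booting panicles and -0.26 for flowering panicles, so the call of DMC1A alone for booting panicles against leaves was lost.

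**Figure D2:**
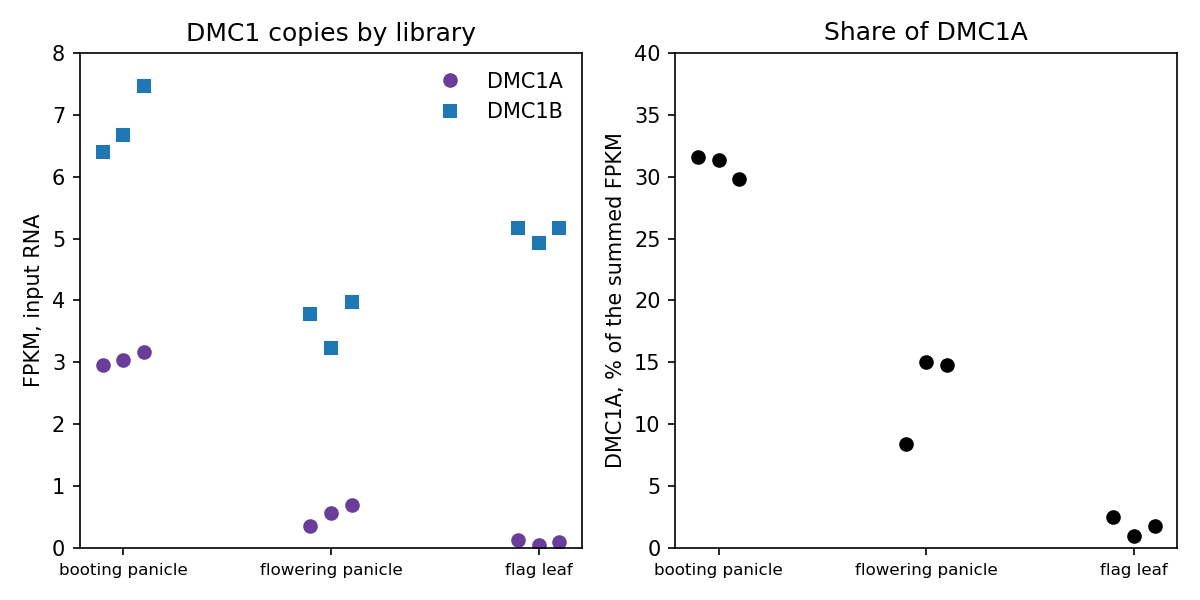
Left, FPKM of DMC1A and DMC1B in each input library of the 3 groups; right, DMC1A as a percentage of the summed FPKM of both copies, with 1 point per library. DMC1B lies between 3.22 and 7.46 FPKM in all 9 libraries, while the share of DMC1A is highest in booting panicles and lowest in leaves.

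Between booting and flowering panicles, 7 of the 10 members fell and none rose, against a background of 15.3% of tested genes called lower and 18.1% called higher (limma). The 7 were PAIR1, SPO11-4, PAIR2, PAIR3, ZEP1, DMC1A and MEL1, and REC8, MER3 and DMC1B were not called. PAIR1 and DMC1A reached 1 FPKM only in the 3 booting libraries, so the filter favoured a fall for them. Without any 1 booting library these 2 left the test, and 5 of the 8 members still tested were called lower. Over all genes, 2807 of 22187 were called lower without booting replicate 1. The counts were 2722 of 22181 without replicate 2 and 2706 of 22193 without replicate 3. At an unadjusted p under 0.05 in the limma fit, 10 members were lower and 0 were higher. The share of all tested genes at an unadjusted p under 0.05 was not computed, here or for later counts. Those counts therefore have no background beside them. The changes ran from -2.91 in MEL1 to -0.23 in REC8 on the log2 scale, with a median of -1.59, while the median of all genes tested was -0.09. In all 10 members every flowering library lay below every booting library, which was so for 43.4% of tested genes. With 5 in place of 1 added to FPKM, 4 members were called lower, beside 1959 of the 23355 tested genes. The changes of PAIR1, ZEP1 and DMC1A were then -0.65, -0.82 and -0.54 on the log2 scale.

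Genes of the tapetum and of pollen moved with the same contrast. All 6 anther wall and tapetum markers fell, with log2 changes from -1.46 in UDT1 to -7.79 in PKS1, and all 3 pollen markers rose, by 5.38 to 8.59. PKS1 kept 0.198% of its booting level in flowering panicles and CYP704B2 kept 0.283%. EAT1 kept 11.1%, TDR 14.9%, MSP1 21.1% and UDT1 26.1%. The members kept between 11.6% in MEL1 and 83.2% in REC8. The part of these cell types in the members' changes was not tested.

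**Figure D3:**
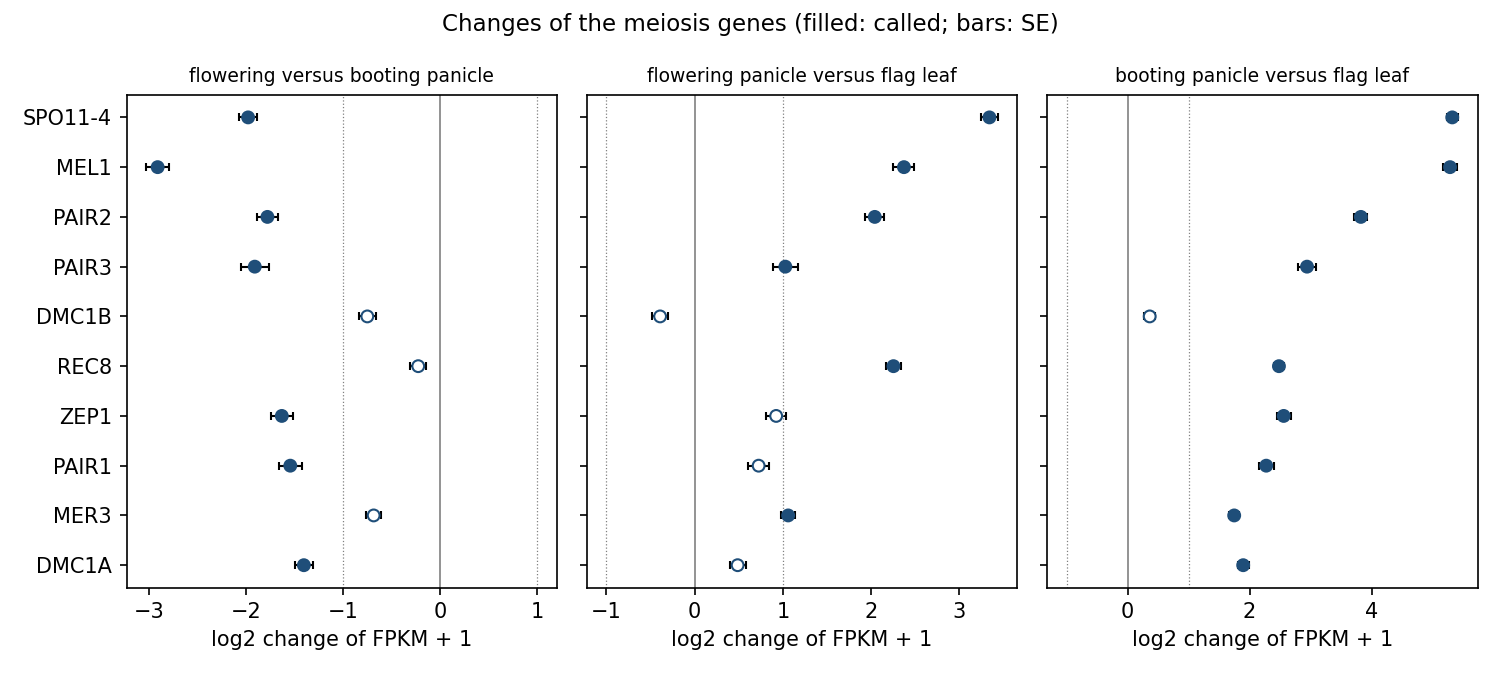
Log2 change of FPKM + 1 for each meiosis gene in the 3 comparisons, with horizontal bars for the standard error from limma; filled points are called, open points are not, the solid line marks 0 and dotted lines mark 1 and -1. MEL1 has the lowest value between the panicle stages, REC8 lies near 0 there but well above 1 against leaves, and DMC1B is open in all 3 panels.

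Against flag leaves of the same stage, flowering panicles held higher levels of 6 members and lower levels of none that were called. The background was 31% of tested genes called higher and 11.5% called lower. SPO11-4 was higher by 3.34 on the log2 scale (SE 0.09; limma adjusted p = 4.98e-10), MEL1 by 2.37, REC8 by 2.25, PAIR2 by 2.04, MER3 by 1.06 and PAIR3 by 1.03. At an unadjusted p under 0.05 in the limma fit, 9 members were higher and 1, DMC1B, was lower, without a share over all genes. ZEP1, PAIR1 and DMC1A had log2 changes of 0.92, 0.73 and 0.49 and were not called, at flowering levels under 2 FPKM. With 0.1 in place of 1 added to FPKM they were called, at 2.16, 2.76 and 1.72, which made 9 members higher. Of the 23355 tested genes, 9063 were then called higher, beside 7239 with 1 added. With 5 added 3 members were called higher, beside 3648 of the tested genes, and PAIR3, REC8 and MER3 were at 0.31, 0.95 and 0.33. For 9 members every flowering library lay above every leaf library, as 59.5% of tested genes did, and for DMC1B every one lay below, as for 25.8%. The call of PAIR3 was lost without flowering replicate 2 (0.99), without flowering replicate 3 (0.92) or without leaf replicate 3 (0.98), while without flowering replicate 1 ZEP1 was called at 1.03.

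Flowering panicles against leaves depended on how libraries were scaled. Under quantile normalization the median log2 change over the tested genes was -0.05 in place of 0.44, and the calls went from 7239 higher and 2691 lower to 4545 higher and 4591 lower. The median of the members was 1.04, beside that 0.44 for all genes tested. Under that scaling 5 members were called, with MER3 at 0.33 and PAIR3 at 0.40 no longer among the higher genes and DMC1B called lower.

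Booting panicles were set against the same leaf libraries, so this comparison shares its leaf values with the one above, and organ and stage differ together in it. Of the members, 9 were higher in booting panicles and none was lower, against 36.4% of tested genes called higher and 17.7% called lower. For PAIR1 and DMC1A, among the 9, the filter favoured this difference. SPO11-4 was higher by 5.32 on the log2 scale (SE 0.09; limma adjusted p = 2.13e-11) and MEL1 by 5.29 (SE 0.12; limma adjusted p = 6.43e-11). PAIR2 was higher by 3.82, PAIR3 by 2.94, ZEP1 by 2.56, REC8 by 2.48, PAIR1 by 2.27, DMC1A by 1.89 and MER3 by 1.75. At an unadjusted p under 0.05 in the limma fit, 10 members were higher and 0 were lower, without a share over all genes. In all 10, every booting library lay above every leaf library, as in 58.7% of tested genes.

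The median change of the members was 2.52 on the log2 scale, beside 0.51 for all genes tested. Under quantile normalization the latter was 0.04, and the calls over all genes went from 8492 higher and 4130 lower to 6073 higher and 5585 lower; 9 members were still called. With 5 in place of 1 added to FPKM 6 members were called higher, beside 5105 of the 23355 tested genes. PAIR1 was then at 0.83, DMC1A at 0.66 and MER3 at 0.64. Leaf means were between 0.713% of the booting mean in MEL1 and 7.90% in MER3, apart from DMC1B at 74.4% and PAIR1, which was listed at 0 in 1 leaf library. REC8 thus stood at 83.2% of its booting level in flowering panicles but at 4.93% in leaves, whereas MEL1 stood at 11.6% and 0.713%.

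The order of the members differed between the organs. In booting panicles SPO11-4 was highest, MEL1 and PAIR2 followed with overlapping libraries, and PAIR3, DMC1B, REC8 and ZEP1 formed a run of neighbours that overlapped. PAIR1 came next, and MER3 and DMC1A, which overlapped, were lowest. In flowering panicles the order was SPO11-4, PAIR2, MEL1, REC8, DMC1B, MER3, PAIR3, ZEP1, PAIR1 and DMC1A, with overlap between MEL1 and REC8, among MER3, PAIR3 and ZEP1, and between PAIR1 and DMC1A. In leaves DMC1B was highest, before PAIR2 at 2.53 ± 0.528 FPKM and SPO11-4 at 1.32 ± 0.145 FPKM (SD, n = 3). The other 7 members had leaf means under 1 FPKM.

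Within each group, 1 replicate was the lowest for most members. Flowering replicate 1 was the lowest flowering library for 9 of the 10, and flowering replicate 3 the highest for 8. Over all genes tested, flowering replicate 1 was lowest for 42.6% and replicate 3 highest for 38.8%. Flowering replicate 1 was also lowest for 4 of the 6 anther wall and tapetum markers and for 2 of the 3 floral organ markers. For 2 of the 3 pollen markers and both leaf markers, however, flowering replicate 1 was highest. The part of anther content in these differences was not tested. In booting panicles replicate 1 was lowest for 7 members and for 38.0% of all genes tested, whereas for the anther wall and tapetum markers replicate 2 was lowest for 4 of 6. In leaves replicate 2 was lowest for 7 members and for 28.3% of all genes tested, whereas replicate 3 was lowest for 5 of the 6 anther wall and tapetum markers and for all 3 floral and all 3 pollen markers.

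Other genes of meiosis were counted on a list of 34, all of which were tested. Of these, SDS, ZIP4, COM1, RAD51A2, LOC_Os04g40290 and LOC_Os05g16250 reached 1 FPKM only in the 3 booting libraries. The filter itself thus favoured a difference for them. From booting to flowering panicles 10 of the 34 fell, none rose and 24 were not called (limma), beside 15.3% of tested genes called lower and 18.1% called higher. The median log2 change of the list was -0.70. At an unadjusted p under 0.05, 28 were lower and 0 were higher in the limma fit, without a share over all genes. RAD51A1, a recombinase that acts beside DMC1, fell by 1.22 on the log2 scale from 10.5 ± 0.471 to 3.95 ± 0.496 FPKM (SD, n = 3). GEN1, a nuclease that cuts joined DNA molecules, fell by 1.16. SGO1, a shugoshin that protects cohesin at centromeres, fell by 1.33, and BRK1, described as a spindle checkpoint kinase, fell by 1.27. PSS1, a kinesin needed for male meiosis in rice, fell by 1.23 from 18.2 ± 0.782 to 7.21 ± 0.938 FPKM (SD, n = 3).

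The other 5 that fell have no gene name in the table. LOC_Os02g37850 fell by 2.02 on the log2 scale and LOC_Os05g16250 by 1.53. LOC_Os05g41880, with a process term of meiotic mismatch repair, fell by 1.40. LOC_Os12g38460, an RNA recognition motif protein, fell by 1.36, and LOC_Os04g40290 fell by 1.14. The filter favoured a fall for LOC_Os05g16250 and LOC_Os04g40290, which passed it only through the booting libraries. Among those not called were the SPO11 relatives of SPO11-4, with log2 changes of -0.30 in SPO11-1 and -0.03 in SPO11-2. SPO11-1 stood at 4.37 ± 0.186 FPKM in booting and 3.37 ± 0.0674 FPKM in flowering panicles (SD, n = 3), well below SPO11-4 in both stages. The crossover protein MSH4 had a change of -0.01 and the cohesin subunit SCC3 -0.69. AM1, described as a DYAD protein, had a change of -0.18.

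Against leaves, flowering panicles held 4 of the 34 at higher levels, AM1, HEI10, PSS1 and LOC_Os05g41880, and 1, MLH3, at a lower level, with a log2 change of -1.004; over all tested genes 31% were called higher and 11.5% lower. The share of the list called higher was below that background. Booting panicles held 20 of the 34 at higher levels than leaves and 0 at lower levels (limma), beside 36.4% and 17.7% of tested genes. For COM1, RAD51A2, LOC_Os04g40290 and LOC_Os05g16250, among the 20, the filter favoured this difference. At an unadjusted p under 0.05 in that limma fit, 30 were higher and 1 was lower, without a share over all genes. The medians of the list were 0.55 and 1.31 on the log2 scale, beside 0.44 and 0.51 for all genes. The order booting, flowering, leaf held for 27 of the 34, beside 41% of tested genes. These counts shifted with the value added to FPKM: with 5, 0 of the 34 were called between the panicle stages and 0 between flowering panicles and leaves, although 29 had an unadjusted p under 0.05 in each limma fit. Over all tested genes these 2 fits called 4367 and 5303, beside 7802 and 9930 with 1 added. Under quantile normalization the list's genes at an unadjusted p under 0.05 between flowering panicles and leaves went from 25 higher and 5 lower to 10 higher and 14 lower.

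Another 5 genes of small RNA pathways were set beside MEL1. AGO1d, another Argonaute, fell from 163.8 ± 8.02 to 49.4 ± 2.01 FPKM between the panicle stages and was at 16.7 ± 0.463 FPKM in leaves (SD, n = 3). Its log2 change between the stages was -1.71 and LOC_Os10g34430, annotated with a ribonuclease III term, had -1.73, and both were called lower. RDR6, an RNA-dependent RNA polymerase, had -0.14, LOC_Os04g43050 -0.17 and AGO18 -0.06, and these 3 were not called.

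Genes with the most similar profile were found by the distance between log2(FPKM + 1) values, centred per gene, over the 9 input libraries. For SPO11-4 they were a STRUBBELIG-RECEPTOR FAMILY 7 protein gene at a distance of 0.271 and a subtilisin-like protease SBT1.7 at 0.314. For MEL1 they were genes described as receptor-like kinases, IRK at 0.469 and LOC_Os04g59320 at 0.488. For PAIR2 they were genes for a receptor expression-enhancing protein at 0.349 and for the transport protein Sec24C at 0.356. The gene nearest to ZEP1 was the lysine-specific demethylase JMJ25 at 0.284, followed by the gamma-tubulin complex component 2 at 0.3001. PAIR3 was nearest to a cysteine-rich repeat secretory protein 12 at 0.195 and a rho GTPase-activating protein 2 at 0.236.

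For PAIR1 the nearest were a dual specificity kinase at 0.267 and a GDSL esterase/lipase at 0.284. For REC8 they were endoglucanase 3 at 0.245 and the kinase SAPK4 at 0.264, and for DMC1A the protein LIKE COV 1 at 0.193 and a malonate-CoA ligase at 0.247. DMC1B was nearest to splicing factor 3A subunit 3 at 0.185, a gene at 40.8, 24.4 and 31.4 FPKM in booting panicles, flowering panicles and leaves, and then to the pentatricopeptide repeat gene LOC_Os08g04400 at 0.189. MER3 was nearest to LOC_Os10g17990, whose description is of a phospholipid synthesis enzyme, at 0.121 and to LOC_Os12g03720, a glutamine-fructose aminotransferase gene, at 0.176. The 9 points fall into 3 organ groups, so these distances describe mostly the organ pattern.

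The m6A peaks came from 1 list per group, which compares pull-down with input, with the authors' fold of pull-down over input and p for each peak. No list gives values for single replicates, so groups were described and not tested, and folds were ranked within a list only. The booting list held 19083 peaks, the flowering list 19502 and the leaf list 19549. All 32 peaks of the members were placed in the 3' UTR, the part of the mRNA after the stop codon where plant m6A is known to be dense; that class held 79.7%, 78.5% and 79.2% of the lists. Of the 32, 29 ended at the last annotated base of the gene, as 69.1%, 61.0% and 68.0% of all peaks did. The authors' list had a peak for 10 members in booting panicles, against 63.1% of tested genes, for 9 in flowering panicles, against 63.5%, and for 10 in leaves, against 64.8%. In all 3 lists a peak was present for 9 members and for 57% of tested genes.

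**Figure D4:**
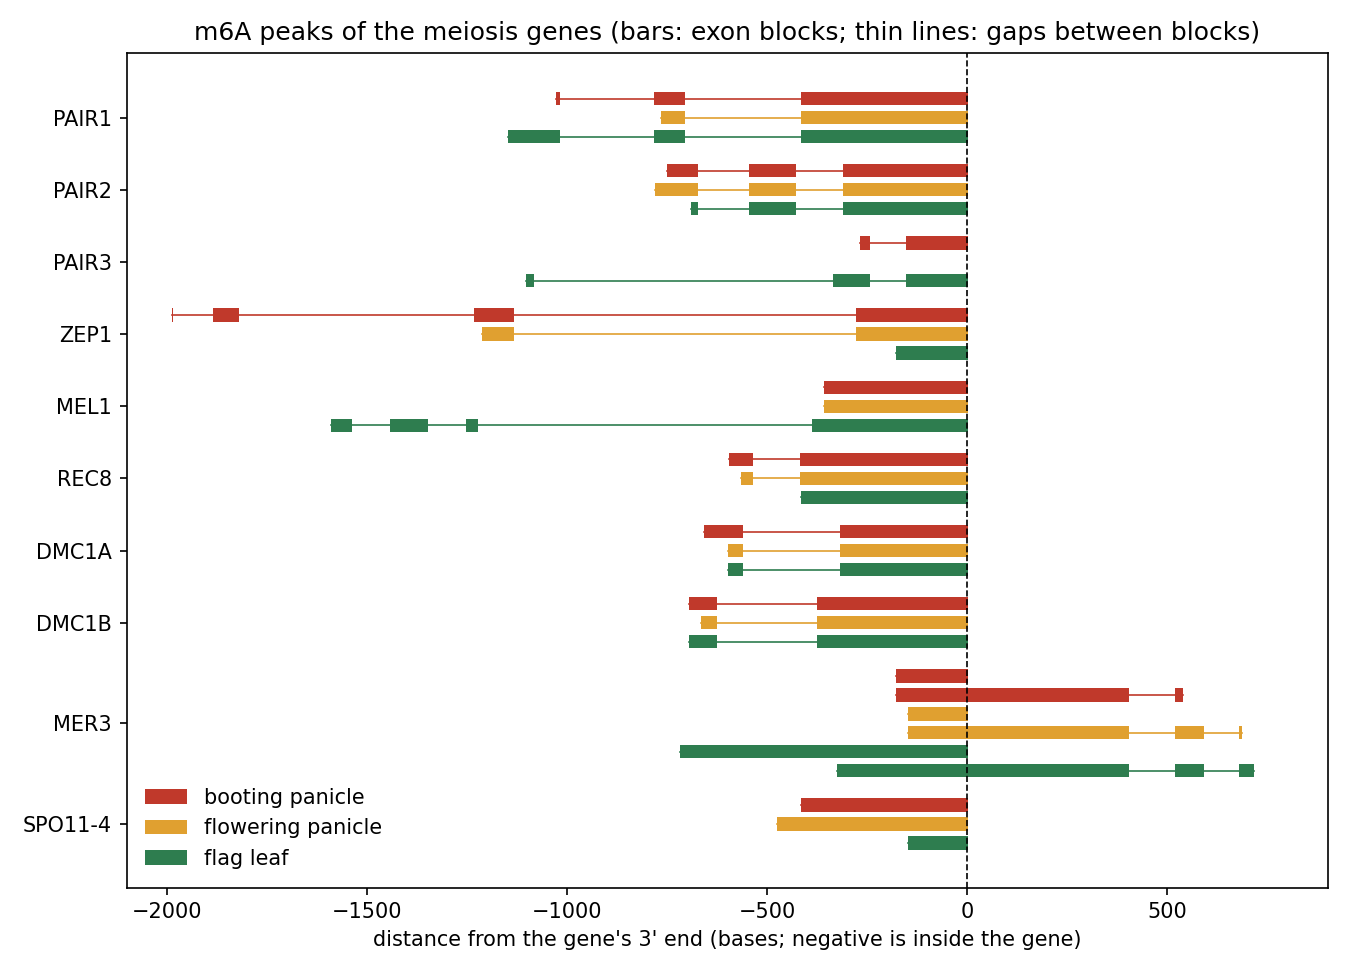
Listed m6A peaks of each meiosis gene, as bases from the gene's 3' end; bars are the blocks of a peak, thin lines the gaps between blocks, and colours the 3 groups. Apart from the second MER3 peak in each group, the peaks end at the 3' end of the gene, and PAIR3 has none in flowering panicles.

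Peaks were more often listed for genes at higher levels, so members were also read against genes at their level. In booting panicles the 7 members at 1 to 10 FPKM had a peak, as 57.6% of tested genes at that level did, and so had the 3 members at 10 FPKM or more, beside 80.9%. In flowering panicles 5 of 6 members at 1 to 10 FPKM had one, beside 57.9%, and both at 10 FPKM or more, beside 77.4%. In leaves the 3 members at 1 to 10 FPKM all had one, beside 68.6%.

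Peaks were listed also where the RNA was scarce. In flowering panicles PAIR1 and DMC1A, with means under 1 FPKM, had a peak, as 28.4% of tested genes at that level did. The 7 members with a leaf mean under 1 FPKM all had a peak in leaves, whereas 32.2% of tested genes at such a leaf level had one. For MER3, 1 of the 7, both leaf peaks overlap the opposite-strand neighbour, which was at 14.3 FPKM there. DMC1A, also 1 of the 7, is near-identical to DMC1B, which was at 3.66 FPKM in flowering panicles and 5.09 FPKM in leaves and had peaks in both. Whether reads of DMC1B entered the DMC1A peaks was not tested. PAIR1 was the extreme case, with a leaf peak of fold 12.2 and log10 p of -2.81 at input levels of 0.017, 0 and 0.017 FPKM. The leaf peak of PAIR3 had a log10 p of -2.70, that of SPO11-4 -4.77, that of MEL1 -6.19 and that of DMC1A -7.40, beside a list median of -125. In booting panicles the log10 p of the same genes was -302 in PAIR1, -19.1 in PAIR3, -274 in SPO11-4, -782 in MEL1 and -351 in DMC1A.

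REC8 stood near the top of all 3 lists by fold, and DMC1B of the booting and leaf lists but not of the flowering list. REC8 had a fold of 61.1 in booting panicles, above 98.9% of that list, 25.5 in flowering panicles, above 95.7%, and 39.6 in leaves, above 98.2%. DMC1B had a fold of 52.7 at booting, above 98.3% of the list, 12.3 at flowering, above 69.9%, and 42.4 in leaves, above 98.6%. Its block structure was the same in booting panicles and leaves, with 446 exonic bases. ZEP1 had folds of 37.1, 50.9 and 15.7 in booting panicles, flowering panicles and leaves, above 94.6%, 99.6% and 69.9% of the lists. Ranked by p from weakest to strongest, ZEP1 stood lower, above 59.1%, 37.9% and 22.1%. By p REC8 stood above 65.7%, 66.0% and 33.8%, and DMC1B above 69.0%, 55.7% and 67.6%. PAIR2 had folds of 25.0, 28.3 and 22.1, above 84.6%, 97.2% and 86.9%. In leaves 8 of the 11 member peaks lay above the list median by fold and 3 by p. The counts were 6 and 8 of 11 in booting panicles, and 8 and 6 of 10 in flowering panicles.

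The most abundant member had peaks of low fold in the 2 panicle lists. SPO11-4, at 91.7 ± 6.67 FPKM in booting panicles (SD, n = 3), had a fold of 4.03 there, above 17.7% of the list, 5.20 in flowering panicles, above 30.2%, and 12.2 in leaves, above 56.2%. MEL1 had the same peak of 358 bases in booting and flowering panicles, at chromosome 3, 33371341 to 33371698, with folds of 9.96 and 12.9. In leaves its peak had 4 blocks with 566 exonic bases and a fold of 24.4, above 90.5% of the list. By p that leaf peak stood above 19.9% of the list, at a mean level of 0.374 FPKM. PAIR3 had the lowest fold of any member, 2.19 in booting panicles, above 4.89% of the list, and no listed peak in flowering panicles, where its level was 1.39 ± 0.416 FPKM (SD, n = 3). Its leaf peak had a fold of 6.60. PAIR1 had folds of 14.8, 10.8 and 12.2 and DMC1A 30.1, 11.6 and 11.2 in booting panicles, flowering panicles and leaves.

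**Figure D5:**
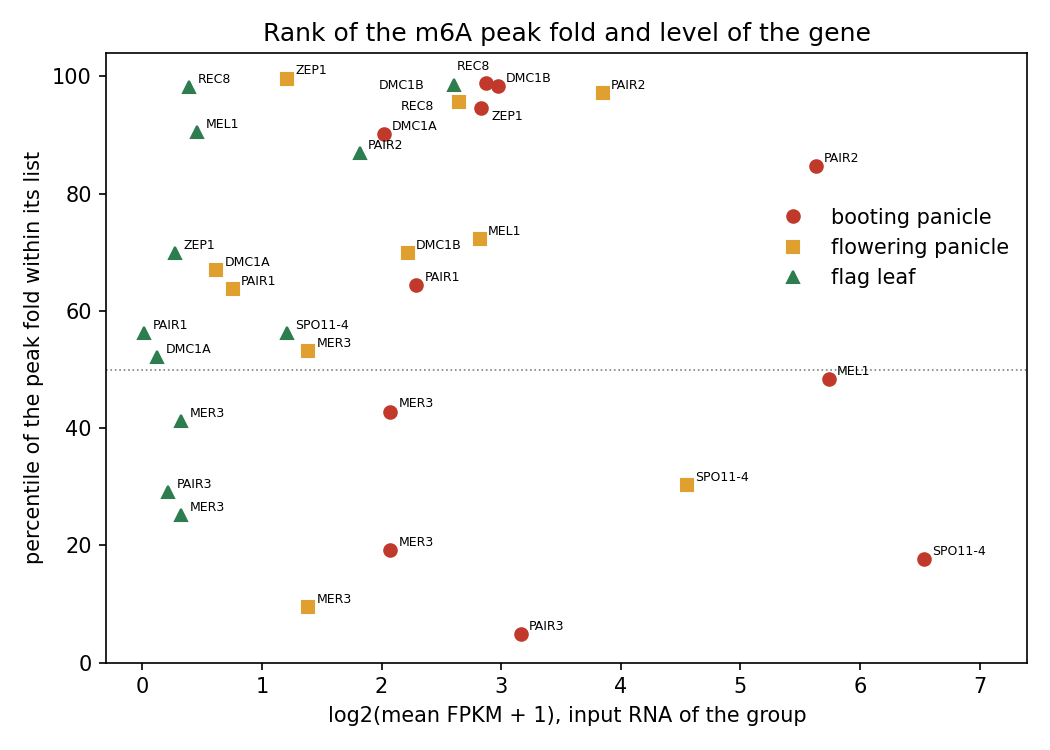
Percentile of each member's peak fold within the list of its group against the gene's mean input level in that group, as log2(FPKM + 1); each point is 1 listed peak, and MER3 has 2 per group. REC8 is above the 95th percentile in all 3 groups over levels from 0.311 to 6.32 FPKM, whereas SPO11-4 lies lowest where its level is highest.

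MER3 had 2 peaks in each group. The first lay inside MER3, in part or whole over the end that it shares with LOC_Os02g40454, with folds of 4.22, 2.59 and 5.74 in booting panicles, flowering panicles and leaves. The second ran 538, 686 and 716 bases past the annotated end of MER3, with folds of 8.65, 8.83 and 8.85. Peaks that pass the end of their gene made up 1.06% of the booting list, 1.06% of the flowering list and 1.15% of the leaf list. All 6 MER3 peaks overlap LOC_Os02g40454 on the opposite strand, at chromosome 2, 24526907 to 24530961. The second leaf peak begins at the 3' end of that gene. The lists assign 0 peaks to LOC_Os02g40454. The log10 p of the second peak was -139 for the booting list, -231 for the flowering list and -1150 for the leaf list, the order of the neighbour's level and not of MER3's, and its assignment to either gene was not tested.

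Peaks of a member overlapped between groups wherever both had one. In every list with a peak for a member, 1 peak ended at the gene's last base, so overlap by 1 base followed from that. The share of all genes with overlapping peaks was not computed. By at least 1 base, 9 members shared a peak between the panicle stages, 10 between booting panicles and leaves and 9 between flowering panicles and leaves. Where at least 50% of each peak had to be shared, the counts were 9, 6 and 6. PAIR3, ZEP1, MEL1 and SPO11-4 no longer shared one between booting panicles and leaves. In ZEP1 the exonic length was 447 bases at booting, 358 at flowering and 179 in leaves, all ending at the same base, and in SPO11-4 it was 417, 477 and 150 bases. Of the 34 other meiosis genes, 28 had a peak at booting, 28 at flowering and 25 in leaves, beside 63.1%, 63.5% and 64.8% of tested genes. These shares were not matched for level.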

How the data were processed

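The genes, lists and tests were chosen with earlier results of these data known. Reads of strand-marked (dUTP) libraries were processed with cutadapt, HISAT2, StringTie, HOMER and ChIPseeker per the submitters' processing notes. The genome build, like the pooling of replicates for peak calls, is not given in the sources used here. Input levels are FPKM, computed by the authors, for 9 libraries. The deposited peak lists give, for each peak, the authors' p-value, log10 p and fold (a ratio of pull-down to input).

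Whole fragments could not be recovered from FPKM. At the best scale 37.4 to 47.7% of low values from 575 single-exon genes were within 0.1 of a whole number. At 1 fixed scale 20% would be by chance, but the best of many trial scales was taken. The chance level of that best value is higher and was not computed. Depth is therefore unknown, and no counting error is given. FPKM sums were 504583 to 569592 per library. limma 3.58.1 (R 4.3.3; prior variance with a trend) was fitted to log2(FPKM + 1) of all 9 input libraries for the 23355 genes at 1 FPKM or more in at least 3 libraries, with 3 groups and no covariate, and tested on simulated data. Single ratios were tested by exact permutation in SciPy 1.17.1.

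Named were all 10 members, each list gene called between the panicle stages, and for each member its 2 nearest non-members with an informative description (the prefix PREDICTED was ignored). Other list genes were named after their values were seen. Alternatives were other pseudocounts, filters, scalings and fits, each library left out, the DMC1 copies summed, stricter peak thresholds and overlaps, and, added after seeing the data, leaving out peaks over an opposite-strand gene. Per-sample columns not used numbered 0.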

Additional observations from a re-analysis of the deposited data

How the results depend on the processing

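Without any 1 library, the members called numbered 5 to 7 between the panicle stages, 5 to 7 for flowering panicles against leaves and 7 to 9 for booting panicles against leaves. Over all tested genes the calls then ran from 6752 to 7804, from 8802 to 9923 and from 11524 to 12615. Leaving out a booting library takes PAIR1 and DMC1A under the filter by construction. With 5 in place of 1 added to FPKM, 4 members were called between the panicle stages, 3 for flowering panicles against leaves and 6 for booting panicles against leaves, and the list of 34 gave 0, 0 and 5 calls in the 3 comparisons (flowering against booting panicles, flowering panicles against leaves, booting panicles against leaves). These 3 limma fits had 29, 29 and 31 of the list at an unadjusted p under 0.05. Over all tested genes they called 4367, 5303 and 7815, beside 7802, 9930 and 12622 with 1 added. With 0.1 added, 9 members were called for flowering panicles against leaves, and the list gave 17 and 18 calls in the first 2 comparisons. All tested genes gave 9626 and 12229 calls in those 2 comparisons. Quantile normalization gave 2 list calls for flowering panicles against leaves and 13, 1 of them lower, for booting panicles against leaves, and turned DMC1B in the latter to -0.17; the cause was not tested. Summing the DMC1 copies turned the DMC1A change for flowering panicles against leaves to -0.26, since DMC1B makes up most of the sum. Equal FPKM sums moved the median of all genes between the panicle stages from -0.09 to -0.20. With at least 50% of each peak shared, 6 members shared a peak between booting panicles and leaves. A peak FDR of at most 0.01 left 10, 9 and 10 members with a peak in booting panicles, flowering panicles and leaves, and leaving out peaks over an opposite-strand gene left 9, 8 and 9.

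With the replicate number as a block, 7, 6 and 9 members were called, as without it, and 7807 genes against 7802 were called between the panicle stages. Between same-numbered libraries the deviations from the group mean had correlations from -0.19 to 0.12, with 2 of 9 over 0.1. These 9 values depend on each other, and no chance level was computed, so they do not settle whether the numbers mark pairs. The labels do not call them pairs, and the numbers were not taken as a pairing. Depth is unknown, so the precision of levels under 1 FPKM is known only from the spread between replicates.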
